A study of Mus musculus with 15 samples.

Results

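The genes described here are 47 genes of DNA replication and S phase, chosen by gene symbol from the probe set annotation of the array platform. They cover origin licensing, the replicative helicase, the DNA polymerases and primase, the sliding clamp and its loader, single-strand binding, Okazaki fragment joining, nucleotide supply, S phase entry and chromatin assembly behind the fork. Of the 47 genes, 45 had a probe set of their own, together 79 of the 22626 probe sets tested, among 12393 genes in all. Gins2 and Chaf1a were not analysed here. Where a gene had more than 1 probe set, its brightest (highest mean over the 15 arrays) stands for it, and all values are log2 array values.

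The arrays were hybridised with RNA of primary neural stem cells from female mice aged 6 weeks, of a strain the labels call C57/B16, grown as neurospheres, which are free-floating clusters of dividing cells. Cultures were either controls or had received CD95L-T4, a trimerised ligand of the death receptor CD95 (Fas), for 48 h. Either all RNA of the cells was taken (total RNA) or only that on polysomes, that is, mRNA with many ribosomes on it (polysomal RNA). There were 4 control and 4 CD95L-T4 arrays of total RNA, and 4 control and 3 CD95L-T4 arrays of polysomal RNA. The labels give no genotype beyond the strain and name no agent given to the controls. They call the replicates biological without saying which cultures or animals they came from, so p-values measure the spread between these samples. Total RNA was extracted on a column and labelled total RNA, whereas polysomal RNA was extracted with phenol and chloroform and labelled polyA RNA. Fraction, extraction and this label cannot be told apart in any difference between polysomal and total RNA.

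DNA replication begins when the origin recognition complex, Cdc6 and Cdt1 load the MCM helicase onto DNA, a step called licensing, which geminin (Gmnn) blocks by binding Cdt1. At the start of S phase, Cdc45 and the GINS complex join MCM to form the active helicase, and the polymerases copy both strands while PCNA, loaded by replication factor C (RFC), holds them on DNA. Many of these genes are transcribed by E2F factors when cells leave G1, so their mRNAs are widely used as marks of dividing progenitor cells, including neural stem cells.

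The cultures carried the marks of neural stem cells. Of the 10 listed markers of neural stem and progenitor cells 9 were measured, of which 5 lay among the brightest 25% of probe sets and none among the dimmest 25%. Nes lay at the 93.1 percentile, Sox2 at 95.6, Vim at 99.1 and Fabp7 at 99.8. All 5 microglia markers, all 5 endothelial markers and all 6 markers of fibroblasts and mural cells lay below the median of probe sets. So did 5 of 7 neuronal, 3 of 5 astrocyte and 4 of 5 measured oligodendrocyte markers, while Map2 (78.3 percentile), Slc1a3 (87.0) and Cnp (90.1) lay among the brightest 25%. Of the stem cell markers, Hes5 lay just below the median, at 49.7. The microglia list averaged 3.83 to 4.07 on the total RNA arrays and 4.06 to 4.26 on the polysomal arrays. Array medians lay between 6.83 and 6.98, so a difference between fractions is relative to the other transcripts on the same arrays and is not a share of an mRNA that was on polysomes. Control measures of the arrays moved with the fraction. Among the control cultures, added poly-A transcripts, which are not RNA of the cells, had a mean of 7.87 ± 0.28 (SD, n = 4) with total RNA. With polysomal RNA the mean was 8.75 ± 0.27 (SD, n = 4). The 3′ minus 5′ difference of actin probe sets was 0.41 ± 0.12 in the former and 0.77 ± 0.03 in the latter. The CD95L-T4 polysomal arrays varied more, with poly-A values of 8.18, 9.86 and 8.32 and actin differences of 0.59, 0.68 and 1.03 in replicates 1, 2 and 3. The part of these measures in the differences between fractions was not tested.

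The 45 members differed between polysomal and total RNA in both directions, and more of them were lower than higher. In control cultures 22 of the 45 members were lower in polysomal RNA, 10 were higher and 13 did not pass the test (limma, adjusted p under 0.05 over all probe sets). That is 71.1% of members past the threshold, beside 56.7% of all genes. For all genes the larger share was higher in polysomal RNA, 33.5%, and 23.2% were lower, whereas among members 22.2% were higher and 48.9% lower. The median difference was -0.24 over the members and 0.10 over all genes, and the polysomal and total values did not overlap in 36 members, or 80% of them, beside 55.5% of all genes. With array medians set equal, the median was -0.15 over members and 0.19 over all genes. These are counts and medians, and no test was made of the list as a whole. Members were also brighter than most probe sets. Apart from Tyms (43.3 percentile), all lay above the median of probe sets, from Orc1 (53.4) to Pcna (99.1). They were not compared with genes of like brightness, so the part of brightness in these shares was not tested. In bulk RNA, fewer cells of a type and less RNA per cell cannot be told apart, which holds for every level given here. Past 2-fold, 3 of the 45 members were called higher (E2f1, Dut and Rpa3) and 1 lower (Rrm1). Among all 12393 genes, 649 were called higher and 578 lower past 2-fold. All 32 calls held their direction and their side of the threshold under each alternative tried, among them other scalings, a replicate block and leaving out each array.

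**Figure D1:**
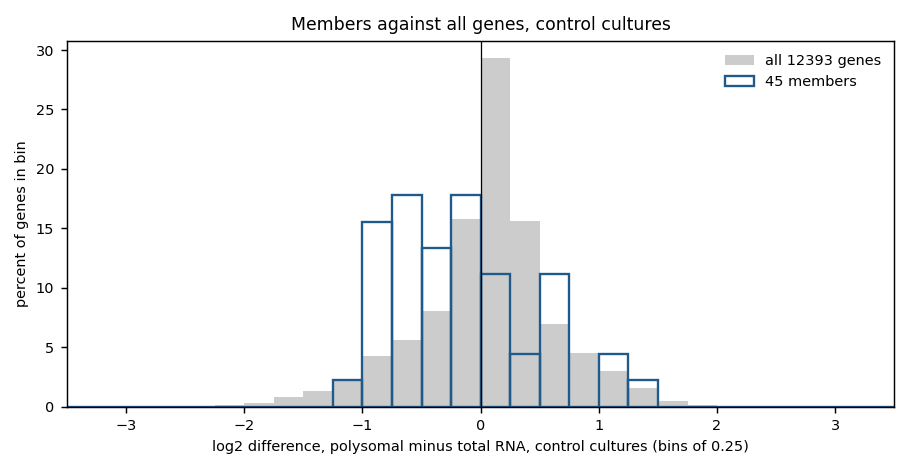
Distribution of the polysomal minus total RNA difference in control cultures, as the percent of genes in bins of 0.25 log2 units on the x axis. Grey bars are all 12393 genes (median 0.10) and blue outlines the 45 replication and S phase genes (median -0.24); the outlines sit to the left of the grey peak, with a smaller group of members on the right.

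Of the 9 measured helicase genes 8 were lower and 1 higher in control polysomal RNA. That is 100% called, beside 56.7% of all genes (33.5% higher, 23.2% lower). All 6 MCM subunits, which form the ring that unwinds DNA, were lower in polysomal RNA of control cultures, as were Mcm10, which helps to activate the helicase, and Cdc45. Gins1, a subunit of the GINS complex, was the single exception among them and was higher. Mcm6 read 11.87, 11.85, 11.79 and 11.82 in the 4 control total arrays and 10.94, 10.87, 10.84 and 10.91 in the 4 control polysomal arrays. Every polysomal array thus lay below every total array, and the difference was -0.94 (SE 0.06, adjusted p = 5.02e-10), or 1.92-fold lower. Mcm4 read 10.95, 10.9, 10.83 and 10.7 in control total RNA and 10.01, 9.99, 10.02 and 9.95 in control polysomal RNA, again without overlap, a difference of -0.85 (SE 0.07, adjusted p = 2.21e-08). Mcm2 read 10.55, 10.43, 10.55 and 10.36 in total and 9.85, 9.75, 9.82 and 9.81 in polysomal RNA, 1.59-fold lower. The other subunits differed by -0.69 (SE 0.08, adjusted p = 4.45e-07) for Mcm5, -0.55 (SE 0.07, adjusted p = 1.14e-06) for Mcm3 and -0.39 (SE 0.07, adjusted p = 0.000251) for Mcm7. Mcm7, at 12.25 ± 0.03 (SD, n = 4) in control total and 11.86 ± 0.12 (SD, n = 4) in control polysomal RNA, had the smallest difference of the 6. Mcm10 differed by -0.47 (SE 0.07, adjusted p = 6.54e-06) and Cdc45 by -0.31 (SE 0.08, adjusted p = 0.00224). Gins1 went the other way, with 9.8, 9.74, 9.67 and 9.59 in total and 10.12, 10.26, 10.45 and 10.45 in polysomal RNA, a difference of 0.62 (SE 0.10, adjusted p = 4.96e-05), and all polysomal arrays lay above the total arrays.

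Because many replication genes are transcribed by E2F factors, the promoters of the members were searched for E2F-type sequences. Whether such a motif bears on a difference between polysomal and total RNA was not tested. RefSeq windows on mouse build GRCm38.p6, 250 bases before to 50 after the transcription start, were held for 39 of the 47 members (46 windows). The letters searched on both strands were TTTCCCGC, TTTGGCGC, TTTCGCGC and TTTGCCGC, of which TTTCGCGC and the reverse complement of TTTGGCGC can overlap. At least 1 of them stood in 13 of the 46 member windows (28.3%) and in 744 of all 32851 windows (2.26%). The CCAAT box stood in 56.5% of member windows and 37.4% of all. The 160 bases before the start are shown for 4 members, in lower case with the E2F-type letters in capitals. Mcm5 and Mcm6 are lower helicase genes with a motif, as are Mcm3 and Mcm7, whereas Mcm2, Mcm10 and Cdc45 were lower and have none in their windows and Mcm4 had no window. Orc1 is the only member with such a motif that was higher, and Cdc6 is a member with a motif that did not pass the test in control cultures. The windows are chr8:75109349-75109508 on the + strand for Mcm5, chr1:128359706-128359865 on the - strand for Mcm6, chr4:108579294-108579453 on the + strand for Orc1 and chr11:98907991-98908150 on the + strand for Cdc6.
Mcm5: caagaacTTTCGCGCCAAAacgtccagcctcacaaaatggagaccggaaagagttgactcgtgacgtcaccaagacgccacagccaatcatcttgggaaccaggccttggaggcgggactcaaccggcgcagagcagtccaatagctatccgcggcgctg
Mcm6: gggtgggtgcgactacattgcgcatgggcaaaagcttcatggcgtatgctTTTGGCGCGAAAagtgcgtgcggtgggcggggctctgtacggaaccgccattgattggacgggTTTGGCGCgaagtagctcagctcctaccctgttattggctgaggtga
Orc1: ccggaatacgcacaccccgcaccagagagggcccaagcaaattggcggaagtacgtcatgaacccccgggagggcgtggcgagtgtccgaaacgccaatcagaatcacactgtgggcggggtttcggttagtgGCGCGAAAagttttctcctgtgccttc
Cdc6: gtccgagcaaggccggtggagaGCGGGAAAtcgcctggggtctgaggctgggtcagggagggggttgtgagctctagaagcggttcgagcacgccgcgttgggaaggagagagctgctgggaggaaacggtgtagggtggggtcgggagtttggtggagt
Among the 38 measured members with a window, the 13 that hold an E2F-type motif comprised 8 lower, 1 higher and 4 that did not pass, with a median difference of -0.53. The 25 without one comprised 11 lower and 6 higher, with a median of -0.17. A match is a description of letters in a window, not a bound site, and no test was made of the difference between these sets.

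**Figure D2:**
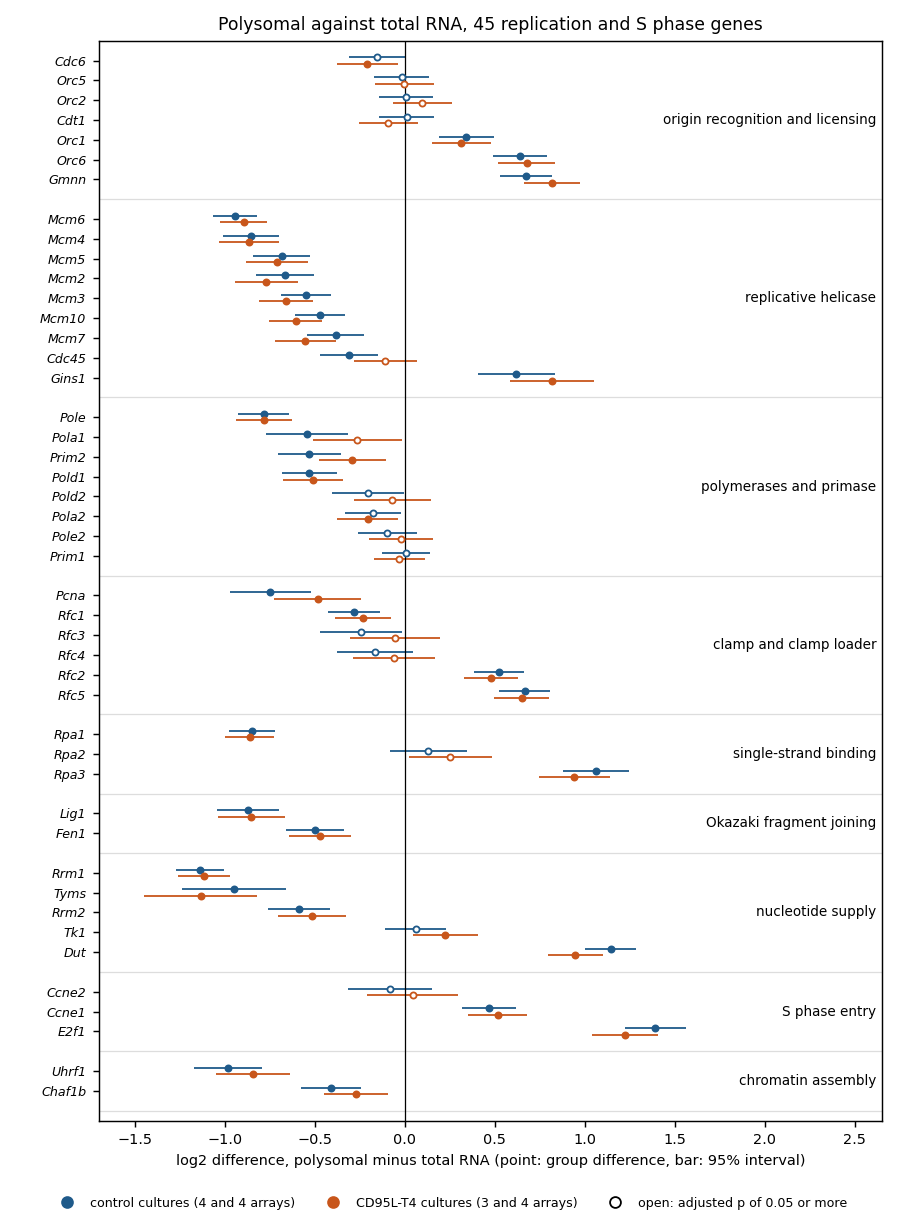
Polysomal minus total RNA differences (x axis, log2) of the 45 measured members, grouped by role and sorted within a role, in control cultures (blue, 4 and 4 arrays) and CD95L-T4 cultures (orange, 3 and 4 arrays). Points are group differences, bars are 95% intervals, and open points have an adjusted p of 0.05 or more; the MCM genes lie to the left of 0 and E2f1, Dut, Rpa3 and Gmnn to the right in both kinds of culture.

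The licensing genes, which act before the helicase starts, comprised 7 measured members, of which 3 were higher in control polysomal RNA. That is 42.9% called, beside 56.7% of all genes (33.5% higher, 23.2% lower). None of the 7 was called lower and 4 did not pass. Other settings called 2 of those 4 lower: Orc2 with the mean of its probe sets (-0.21, adjusted p = 0.0084) and Cdc6, whose groups did not overlap, in a fit of the compared groups alone (adjusted p = 0.0493). Geminin read 10.07, 10.1, 10.03 and 10.02 in control total RNA and 10.65, 10.68, 10.83 and 10.75 in control polysomal RNA, so no arrays overlapped, and the difference was 0.67 (SE 0.07, adjusted p = 1.9e-07). Orc6, a subunit of the origin recognition complex, differed by 0.64 (SE 0.07, adjusted p = 4.34e-07), and Orc1, its largest subunit, by 0.34 (SE 0.07, adjusted p = 0.000527). The other origin recognition subunits among the members, Orc2 and Orc5, differed by 0.01 (adjusted p = 0.958) and -0.02 (adjusted p = 0.855). Of the subunits outside the member list, Orc3 was lower at -0.225 (limma, adjusted p = 0.00477) and Orc4 differed by 0.12 (adjusted p = 0.197). Cdt1, the partner that geminin inhibits, differed by 0.01 (adjusted p = 0.918) and Cdc6 by -0.15 (SE 0.07, adjusted p = 0.0881).

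Among the polymerases and primase, 4 of 8 genes were lower in control polysomal RNA, none was higher and 4 did not pass. The share called, 50%, was near the 56.7% of all genes (33.5% higher, 23.2% lower). Pole, the catalytic subunit of the leading strand polymerase epsilon, read 9.16, 9.19, 9.17 and 9.18 in total and 8.36, 8.4, 8.41 and 8.39 in polysomal RNA. These values did not overlap, and the difference was -0.79 (SE 0.07, adjusted p = 2.06e-08). Pola1, the catalytic subunit of polymerase alpha, read 8.56, 8.92, 8.73 and 8.66 in total and 8.38, 8.2, 8.04 and 8.07 in polysomal RNA, a difference of -0.55 (SE 0.11, adjusted p = 0.000331). Prim2, the large primase subunit, read 9.47, 9.38, 9.38 and 9.39 in total and 8.95, 8.78, 8.84 and 8.93 in polysomal RNA, also without overlap, a difference of -0.53 (SE 0.08, adjusted p = 2.66e-05). Pold1, the catalytic subunit of polymerase delta, differed by -0.53 (SE 0.07, adjusted p = 6.78e-06). The genes that did not pass were the accessory subunits Pola2, Pold2 and Pole2, at -0.17 (SE 0.07, adjusted p = 0.0531), -0.20 (SE 0.09, adjusted p = 0.0731) and -0.10 (SE 0.08, adjusted p = 0.304), and the small primase subunit Prim1, at 0.01 (SE 0.06, adjusted p = 0.952). Thus the catalytic polymerase subunits Pola1, Pold1 and Pole were all lower, while the accessory subunits among the members had negative differences that missed the threshold. Accessory subunits outside the member list went the other way in control cultures. Pole4 was higher by 1.46 (limma, adjusted p = 3.78e-09) and Pold4 by 1.245 (adjusted p = 3.53e-09). Pole3 was higher by 1.20 (adjusted p = 2.81e-09) and Pold3 by 0.34 (adjusted p = 0.000653). In a fit of the compared groups alone, Pola2 and Pold2, and also Cdc6 and Rfc3, were called lower, which made 36 members called. All-gene calls were not counted in that fit.

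Subunits of the clamp loader and of replication protein A (RPA), which coats single-stranded DNA, lay on opposite sides of 0. Pcna, the sliding clamp, read 13.33, 13.39, 13.37 and 13.38 in the control total arrays and 12.45, 12.6, 12.68 and 12.75 in the control polysomal arrays. The groups did not overlap, and the difference was -0.75 (SE 0.11, adjusted p = 9.31e-06). Of the RFC subunits, Rfc1, the large one, was lower at -0.28 (SE 0.07, adjusted p = 0.00174). Rfc5 was higher, with 9.82, 9.84, 9.79 and 9.73 in total and 10.45, 10.53, 10.48 and 10.39 in polysomal RNA, a difference of 0.67 (SE 0.07, adjusted p = 1.43e-07), and Rfc2 was higher by 0.53 (SE 0.07, adjusted p = 1.98e-06). Rfc3 and Rfc4 did not pass, at -0.24 (SE 0.11, adjusted p = 0.068) and -0.17 (SE 0.10, adjusted p = 0.172). Rpa1, the large RPA subunit, read 12.47, 12.52, 12.51 and 12.54 in total and 11.64, 11.61, 11.67 and 11.73 in polysomal RNA, a difference of -0.85 (SE 0.06, adjusted p = 2.41e-09). Rpa3, the small RPA subunit, read 10.22, 10.16, 10.12 and 10.06 in total and 11.41, 11.2, 11.14 and 11.05 in polysomal RNA, a difference of 1.06 (SE 0.09, adjusted p = 1.19e-08), or 2.08-fold higher. Neither subunit had overlapping groups, and the middle subunit Rpa2 differed by 0.13 (SE 0.10, adjusted p = 0.295).

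Both Okazaki fragment genes were lower. Lig1, the ligase that joins the fragments, read 10.46, 10.39, 10.27 and 10.36 in total and 9.43, 9.38, 9.53 and 9.65 in polysomal RNA, a difference of -0.87 (SE 0.08, adjusted p = 5.91e-08) without overlap. Fen1, the nuclease that trims their 5′ flaps, read 10.72, 10.9, 10.83 and 10.82 in total and 10.27, 10.25, 10.45 and 10.31 in polysomal RNA, a difference of -0.50 (SE 0.08, adjusted p = 2.3e-05), and again every polysomal array lay below every total array.

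The nucleotide supply genes held both the largest negative and one of the largest positive differences among members. Rrm1, the large subunit of ribonucleotide reductase, read 11.25, 11.24, 11.26 and 11.19 in control total and 10.05, 10.1, 10.1 and 10.14 in control polysomal RNA. The polysomal arrays were all lower, by 2.20-fold (difference -1.14, SE 0.06, adjusted p = 2.09e-10). Rrm2, the small subunit, differed by -0.59 (SE 0.08, adjusted p = 8.34e-06). Tyms, thymidylate synthase, read 6.82, 6.81, 6.57 and 6.7 in total and 5.94, 5.93, 5.45 and 5.78 in polysomal RNA, a difference of -0.95 (SE 0.14, adjusted p = 1.18e-05). Of its 3 probe sets 2 lay among the dimmest 25%, and 1 further probe set, annotated to Tyms together with another gene, was not used, so the Tyms value is uncertain. Dut, which removes dUTP and so keeps uracil out of DNA, read 10.66, 10.49, 10.48 and 10.55 in total and 11.71, 11.74, 11.64 and 11.67 in polysomal RNA. Here the polysomal arrays were all higher, by 2.21-fold (difference 1.15, SE 0.07, adjusted p = 3.34e-10). Thymidine kinase, Tk1, differed by 0.06 (adjusted p = 0.552).

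E2f1, the transcription factor that drives S phase entry, had the largest positive difference of all members. It read 7.9, 7.79, 7.67 and 7.82 in control total and 9.23, 9.15, 9.16 and 9.21 in control polysomal RNA, 2.63-fold higher (difference 1.39, SE 0.08, adjusted p = 2.88e-10). The lowest polysomal array stood far above the highest total array. Ccne1, a cyclin that activates Cdk2 at the start of S phase, was higher by 0.47 (SE 0.07, adjusted p = 1.98e-05), while its relative Ccne2 differed by -0.08 (adjusted p = 0.555). The chromatin genes were lower. Uhrf1, which brings the maintenance DNA methyltransferase to new DNA, read 11.2, 11.13, 11.04 and 11 in total and 10.06, 10.05, 10.15 and 10.18 in polysomal RNA, without overlap, a difference of -0.98 (SE 0.09, adjusted p = 4.77e-08). Chaf1b, a subunit of chromatin assembly factor 1, differed by -0.41 (SE 0.08, adjusted p = 0.000223).

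**Figure D3:**
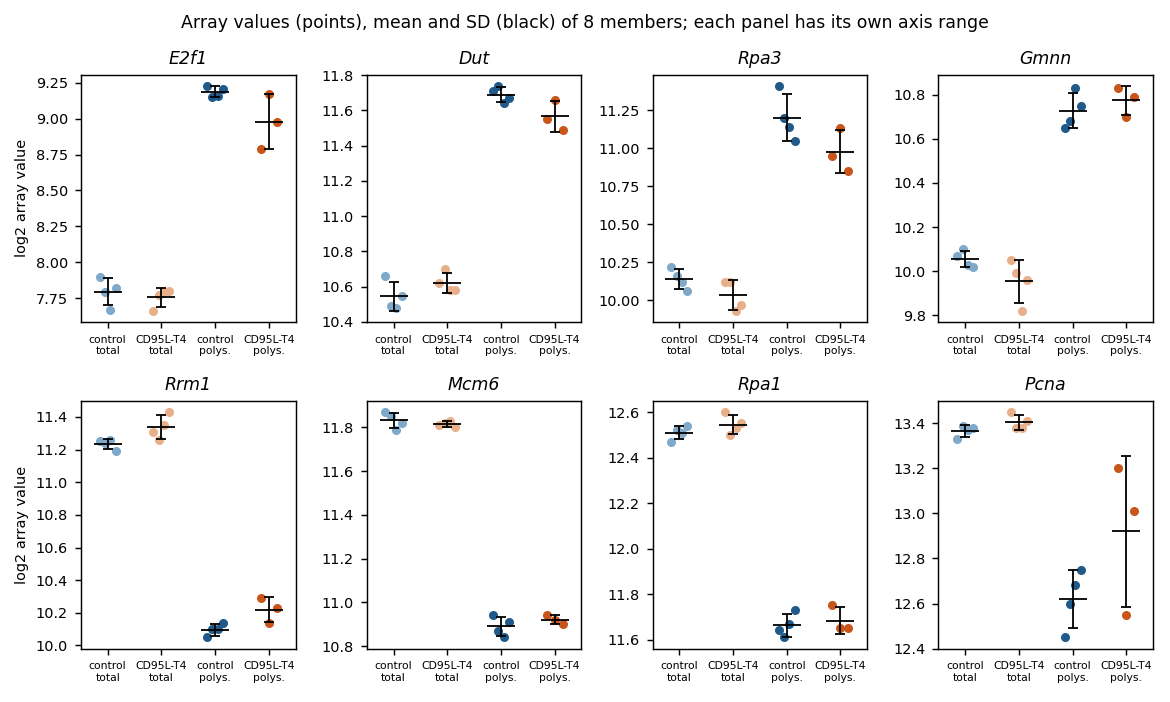
Log2 values (y axis, a separate range for each panel) of 8 members in every array of the 4 groups, with the mean and SD in black. E2f1, Dut, Rpa3 and Gmnn were higher and Rrm1, Mcm6, Rpa1 and Pcna lower in the polysomal groups; the CD95L-T4 and control arrays of a fraction overlapped or touched in each panel.

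Probe sets of the same gene mostly gave the same call. Of the 24 members with several probe sets, 20 had the same call from each in control cultures and 4 did not, namely Orc2, Mcm7, Rpa2 and Tyms, in each of which some probe sets passed in 1 direction and others did not pass. For Cdt1, Pola2, Prim1, Rfc3 and Rfc4 the same call means that no probe set passed. Signs differed between probe sets of Cdt1 (-0.015 to 0.115), Rfc3 (-0.2425 and 0.07) and Rfc4 (-0.165 and 0.0225). Such agreement was not counted over all genes. No member had probe sets called in opposite directions. The sizes varied more: Rrm1 ranged from -2.40 to -1.14 over its probe sets, Mcm3 from -1.48 to -0.37 and Rrm2 from -1.06 to -0.40. For Rpa2 the probe sets gave -0.59 and 0.13, and for Tyms -0.95 to 0.18. The brightest probe set was the smaller difference for Rrm1, and the other E2f1 probe set gave 1.41 beside 1.39. Averaging all probe sets of a gene turned Orc2 to -0.21 (limma, adjusted p = 0.0084) and Rpa2 to -0.23 (adjusted p = 0.0461).

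**Figure D4:**
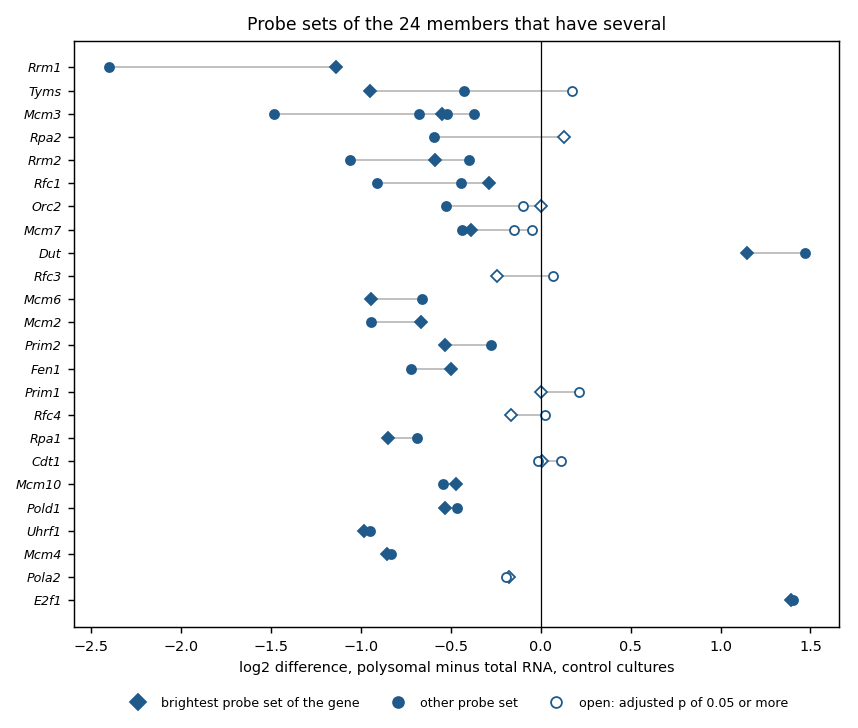
Polysomal minus total RNA differences in control cultures (x axis, log2) for each probe set of the 24 members that have several, sorted by their range. Diamonds are the brightest probe set, circles the others, and open symbols have an adjusted p of 0.05 or more; E2f1, Pola2 and Mcm4 have probe sets side by side and Rrm1, Tyms and Mcm3 have the widest ranges.

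The CD95L-T4 cultures gave a second comparison of the fractions on separate arrays. There 22 members were lower in polysomal RNA, 11 higher and 12 did not pass, 73.3% of members beside 51.4% of all genes (29.6% higher, 21.8% lower). The median was -0.21 over members and 0.07 over all genes, and 29 members had groups that did not overlap, 64.4% beside 48.2%. That median was -0.12 with array medians set equal (0.16 over all genes) and -0.11 with the mean of a gene's probe sets. Across the 45 members the differences of both kinds of culture correlated at a Pearson r of 0.980 and a Spearman rho of 0.974, and across all genes at 0.961 and 0.915. This is a description across genes, which share arrays and are not replicates. Of the members, 10 were higher in both, 20 lower in both, none went opposite ways and 10 passed in neither. These shared calls were not counted over all genes, so they cannot be set against a background. The sign of the difference was the same in both kinds of culture in 42 members (93.3%), beside 85.9% of all genes.

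After CD95L-T4, E2f1 read 7.66, 7.77, 7.79 and 7.8 in total and 8.79, 9.17 and 8.98 in polysomal RNA, a difference of 1.23 (adjusted p = 5.1e-09). Gmnn read 10.05, 9.99, 9.82 and 9.96 in total and 10.83, 10.7 and 10.79 in polysomal RNA, 0.82 (adjusted p = 6.9e-08). Gins1 read 9.69, 9.87, 9.69 and 9.63 in total and 10.71, 10.26 and 10.64 in polysomal RNA, 0.82 (adjusted p = 6.36e-06). In these 3 genes every polysomal array lay above every total array, as did those of Dut at 0.95 (adjusted p = 1.08e-08) and of Rpa3 at 0.94 (adjusted p = 1.87e-07). Rpa3 read 10.12, 10.12, 9.93 and 9.97 in total RNA of these cultures and 10.95, 11.13 and 10.85 in polysomal RNA. Among the genes that were lower, Rrm1 read 11.31, 11.26, 11.35 and 11.43 in total and 10.29, 10.14 and 10.23 in polysomal RNA, -1.12 (adjusted p = 1.22e-09). Tyms read 6.75, 7.02, 6.42 and 6.79 in total and 5.29, 5.8 and 5.74 in polysomal RNA, -1.14 (adjusted p = 4.42e-06). The groups of both genes were far apart, and by its brightest probe set each MCM subunit again lay lower on every polysomal array. Some dimmer probe sets of Mcm3, Mcm4, Mcm6 and Mcm7 had overlapping groups in these cultures. Mcm6 read 11.81, 11.82, 11.83 and 11.8 in total and 10.94, 10.92 and 10.9 in polysomal RNA, -0.90 (adjusted p = 4.14e-09). Mcm4 read 10.9, 10.96, 10.81 and 10.85 in total and 10.07, 9.87 and 10.1 in polysomal RNA, -0.87 (adjusted p = 7.33e-08). Rpa1 read 12.6, 12.5, 12.53 and 12.55 in total and 11.75, 11.65 and 11.65 in polysomal RNA, -0.86 (adjusted p = 9.65e-09), also without overlap.

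Pola1 and Cdc45 passed only in control cultures and Cdc6, Pola2 and Tk1 only in CD95L-T4 cultures, and the interaction test below called none of them. Several of the smaller CD95L-T4 calls hung on single arrays: without 1 array of these cultures at a time, Cdc6, Pola2, Tk1, Prim2 and Chaf1b each lost the threshold at least once. Without CD95L-T4 polysomal replicate 1, Tk1 fell to 0.13 (adjusted p = 0.223), Cdc6 stood at -0.17 (0.138) and Rfc3 was called lower at -0.25 (0.0274). Without CD95L-T4 polysomal replicate 2, Prim2 stood at -0.20 (0.0696), Pola2 at -0.14 (0.170) and Rpa2 was called higher at 0.38 (0.00674). Without CD95L-T4 polysomal replicate 3, Chaf1b stood at -0.21 (0.0677) and Pola1 was called lower at -0.36 (0.0250). A fit of the compared groups alone called none of Cdc6, Pola2, Prim2, Rfc1, Tk1 and Chaf1b in these cultures (limma, adjusted p from 0.0543 to 0.125). With array medians set equal, the calls in these cultures split into 13 higher and 17 lower. All-gene calls were not counted under that scaling, so this split cannot be set against a background.

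CD95L-T4 did not detectably change any replication gene in total RNA. None of the 45 members passed the test, and the background was 0% of all genes. At an unadjusted p under 0.05 there were also 0 members, beside 426 genes (3.44%). By its brightest probe set, no member had control and treated arrays that were fully apart, beside 2.74% of all genes. Of all 79 member probe sets 1, a dimmer one of Cdt1, was fully apart, beside 571 of all 22626. The median difference was 0.02 beside 0.015 for all genes, and members ranged from -0.12 to 0.13. All 45 of the 95% intervals lay within 1.5-fold in either direction, as did 98.98% of all genes. Fen1 read 10.72, 10.9, 10.83 and 10.82 in control and 10.92, 10.8, 11.06 and 11.01 in CD95L-T4 total RNA, a difference of 0.13 with a 95% interval of -0.03 to 0.29. Cdt1 read 11.05, 11.11, 11.04 and 10.97 in control and 11.13, 11.03, 11.18 and 11.29 in treated total RNA, and Mcm2 read 10.63, 10.69, 10.38 and 10.63 after treatment against the control values above. Control and treated arrays overlapped in these genes and in Rrm1 and Gmnn, and the differences of 0.12 (Cdt1), 0.11 (Mcm2), 0.10 (Rrm1) and -0.10 (Gmnn) all had an adjusted p of 0.997, as had that of Fen1.

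In polysomal RNA none of the 45 members passed either, again with 0% of all genes. At an unadjusted p under 0.05 there were 5 members (11.1%), near the 9.49% of all genes. The median difference was 0.04 beside 0.00 for all genes, members ranged from -0.22 to 0.30, and all 45 intervals lay within 1.5-fold (97.3% of all genes). Pcna read 13.2, 12.55 and 13.01 in the CD95L-T4 polysomal arrays, so replicates 1 and 3 lay above every control polysomal array and replicate 2 among them. Its difference was 0.30 (SE 0.11, 95% interval 0.06 to 0.54, adjusted p = 0.483). Cdc45 read 8.02, 8.04, 8.1 and 8.1 in control and 8.45, 8.15 and 8.21 in CD95L-T4 polysomal RNA, a difference of 0.20 (adjusted p = 0.493). By brightest probe sets, it was the only member whose groups did not overlap (2.22% of members beside 5.48% of all genes). Of all 79 member probe sets 3 did not overlap, those of Cdc45 and dimmer ones of Pola2 and Rfc1, beside 1227 of all 22626. Pold2, the accessory subunit of polymerase delta, read 10.37, 10.35, 10.43 and 10.51 in control and 10.9, 10.38 and 10.61 in treated polysomal RNA, with overlap, and differed by 0.21 (adjusted p = 0.515). E2f1 and Rpa3, whose array values are given above, differed by -0.21 and -0.22 (adjusted p = 0.494 for each), and their treated and control polysomal arrays overlapped.

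Calls in polysomal RNA turned on replicate 2 of the CD95L-T4 group, whose poly-A transcripts stood apart. Its median over members lay -0.02 from the control polysomal mean, beside 0.10 for replicate 1 and 0.04 for replicate 3, and 17 of 45 members lay above that mean against 32 and 28. Without replicate 2, limma called 3 members in polysomal RNA: Pcna at 0.48 (adjusted p = 0.00925), Pold2 at 0.34 (0.0442) and E2f1 at -0.30 (0.0423). The same fit called 790 of all genes, 6.37%, so 3 of 45 members is near that background. The actin 3′ minus 5′ difference of replicate 2, 0.68, lay between those of replicates 1 and 3 (0.59 and 1.03). The part of these control measures in the calls was not tested.

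**Figure D5:**
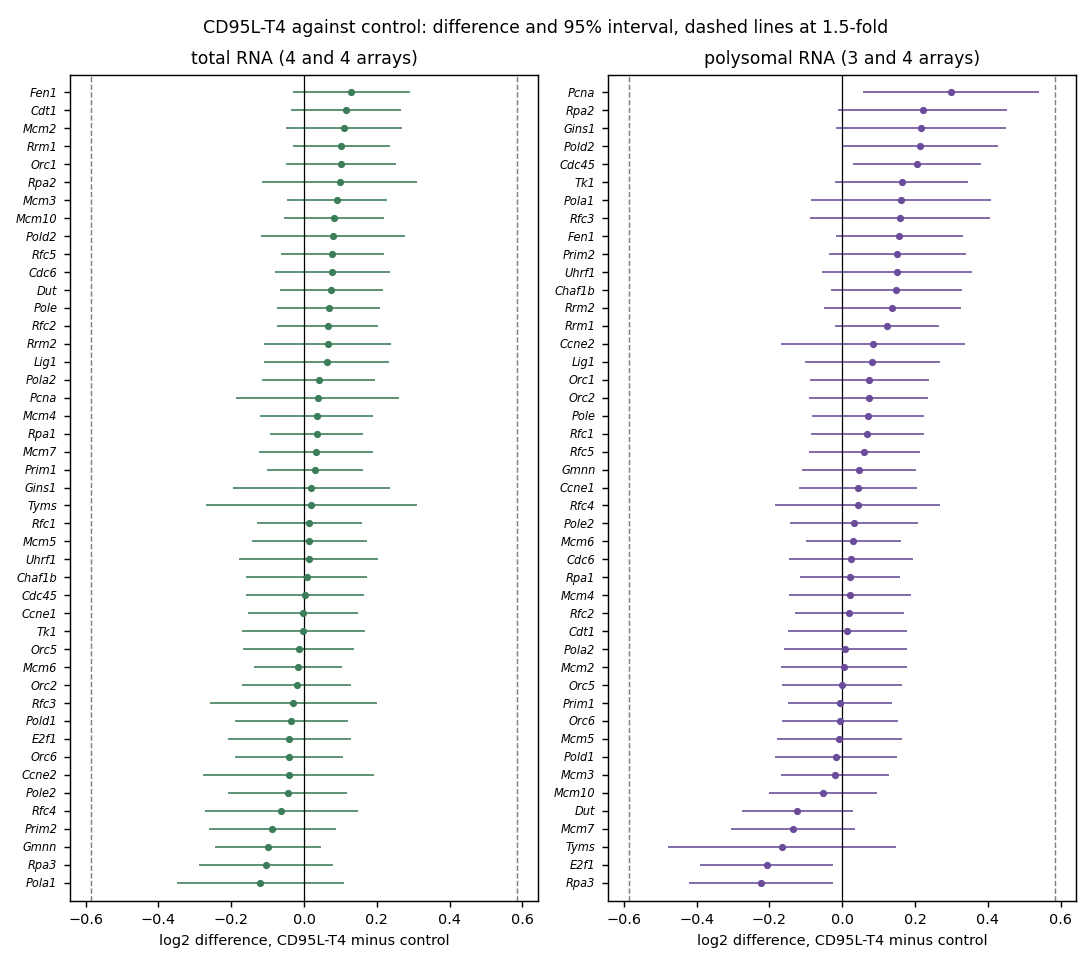
Differences between CD95L-T4 and control cultures (x axis, log2) of the 45 members in total RNA (left, 4 and 4 arrays) and polysomal RNA (right, 3 and 4 arrays), with 95% intervals. Dashed lines mark 1.5-fold; every interval lies between them, and Pcna is at the top and Rpa3 at the bottom of the polysomal panel.

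The interaction asks whether CD95L-T4 changed polysomal RNA differently from total RNA. It called none of the members and 0% of all genes, with 0 members and 495 genes (3.99%) at an unadjusted p under 0.05. The median was 0.02 over members and -0.01 over all genes, and 42 of 45 intervals lay within 1.5-fold (93.3% beside 87.5%). The members with the smallest p were Dut at -0.20 (95% interval -0.41 to 0.01), Prim2 at 0.24 (-0.02 to 0.50), Cdc45 at 0.20, Pola1 at 0.28 and Pcna at 0.26, each with an adjusted p of 0.897. Dut read 10.62, 10.7, 10.58 and 10.58 in total and 11.55, 11.66 and 11.49 in polysomal RNA after CD95L-T4, so its polysomal arrays stayed above its total arrays. Prim2 read 9.38, 9.33, 9.24 and 9.32 in total and 9.27, 8.85 and 8.96 in polysomal RNA of these cultures. Pola1 read 8.77, 8.55, 8.47 and 8.6 in total and 8.08, 8.39 and 8.53 in polysomal RNA. In Prim2 and Pola1 the polysomal and total arrays of CD95L-T4 cultures overlapped, whereas in control cultures they did not. Cdc45 read 8.53, 8.36, 8.36 and 8.26 in CD95L-T4 total RNA and Pcna 13.45, 13.38, 13.38 and 13.41.

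Further genes of the same pathways were read for comparison, against the same background of 33.5% of all genes higher and 23.2% lower in control cultures. Of 67 further replication and S phase genes 54 were measured, and in control cultures 21 were higher in polysomal RNA, 20 lower and 13 did not pass, with a median of 0.08. Dctpp1, which breaks down abnormal deoxynucleotides, differed by 1.29 (SE 0.08), Rnaseh2c, a subunit of ribonuclease H2, by 1.12 (SE 0.07), and Top2a, which untangles replicated DNA, by -1.10 (SE 0.08). In CD95L-T4 cultures the counts were 22 higher and 20 lower, with a median near 0 (0.005), beside 29.6% and 21.8% of all genes. Of 40 mitosis genes 37 were measured, with 23 lower, 7 higher and 7 that did not pass in control cultures, and a median of -0.39. Among them the condensin subunit Smc2 differed by -1.14 (SE 0.08), the proliferation marker Mki67 by -1.47 (SE 0.11) and the centromere histone Cenpa by 0.99 (SE 0.07). No gene of either list passed the test of CD95L-T4 against control in total or polysomal RNA.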

How the data were processed

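The deposited table holds log2 values of 22690 probe sets on 15 arrays, rounded to 2 decimals by the authors, and the summary and normalisation methods are not given in the sources used here. The platform's own 64 control probe sets were dropped. Of the 22626 tested, 20380 had 1 gene in the platform annotation, 691 several and 1555 none. Groups were read from the sample titles. A linear model of 4 group means was fitted to the 15 arrays with limma 3.58.1 (R 4.3.3), and 5 contrasts were tested, two-sided, with Benjamini-Hochberg adjustment over all probe sets at 0.05. Intervals are 95% intervals of that fit. Precision is limited by the number of arrays. These steps were tested on simulated data.

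The members and lists were chosen with earlier results of these data known. Array values are printed for the 5 largest rises and falls per fraction contrast among members called without overlap, the smallest p of each role in control cultures, and the 5 smallest p of each CD95L-T4 contrast and of the interaction. Replicate numbers were not taken to pair the samples: of 21 correlations of same-numbered arrays, from -0.234 to 0.219, 7 were above 0.1. Of these 7, 4 were the 4 pairs of CD95L-T4 total with control polysomal arrays, groups that no contrast compares directly, and in no other pair of groups did every number exceed 0.1. Promoter sequences are from RefSeq (GRCm38.p6). Alternatives were quantile scaling, equal array medians, no dim probe sets, a fit of only the groups compared, trended and robust variances, a replicate block, the mean of a gene's probe sets and leaving out each array.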

Additional observations from a re-analysis of the deposited data

Results flagged for a closer look

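In 8 of the 135 sets of 4 arrays examined (45 members in 3 groups), 1 array stood far from the other three by Dixon's test, which chance does in about 1 set of 20. In control total RNA, Orc6 read 10.17 in replicate 3 against 10.28 to 10.3 in the others. In replicate 1 of the same group, Pola2 read 8.63 against 8.56 to 8.57 and Prim2 read 9.47 against 9.38 to 9.39. In CD95L-T4 total RNA, Orc2 read 9.13 in replicate 4 against 9.31 to 9.33 and Pole2 read 9.79 there against 9.85 to 9.86. In replicate 3 of that group, Orc5 read 9.52 against 9.76 and Ccne1 read 7.9 against 8.06 to 8.08. In control polysomal RNA, Rfc3 read 9.48 in replicate 4 against 9.58 to 9.6. The group of 3 CD95L-T4 polysomal arrays was too small for this test.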

How the results depend on the processing

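With a replicate block, 32 members were called between fractions in control cultures and 32 in CD95L-T4 cultures, where Tk1 was lost, and 0 in the CD95L-T4 contrasts and the interaction; 3 of 15 arrays correlated best with their own number. The median over members in control cultures was -0.22 with quantile scaling and -0.15 with equal medians, and in CD95L-T4 cultures -0.12 with equal medians and -0.11 with the mean of probe sets. Leaving out each array gave 32 to 35 and 30 to 34 members called, medians of -0.25 to -0.23 and -0.23 to -0.14, and 0 to 3 members for CD95L-T4 in polysomal RNA. In those fits 52.5% to 58.3% of all genes were called between fractions in control cultures and 48.7% to 51.3% in CD95L-T4 cultures. For CD95L-T4 in polysomal RNA the all-gene share was 0% to 6.37%. All-gene calls were not counted under the other alternatives, the replicate block included. For CD95L-T4 in total RNA and the interaction every fit run called 0 members. Comparing groups alone does not apply to the interaction.

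Only members that had missed the threshold changed sign. In control cultures these were Orc2 (-0.21), and Rpa2 (-0.23) with the mean of probe sets, Orc5 (0.00392) and Cdt1 (-0.0207) with quantile scaling, and Orc5 (0.075) and Ccne2 (0.01) with equal medians. In CD95L-T4 cultures equal medians gave Orc5 0.0871, Pold2 0.0204, Pole2 0.0696, Prim1 0.0596, Rfc3 0.0363 and Rfc4 0.0304, and the mean of probe sets gave Orc2 -0.0886, Prim1 0.156, Rfc3 0.0333, Rfc4 0.0829 and Rpa2 -0.0233. Leaving out each array, the ranges in control cultures were -0.0158 to 0.0308 for Orc2, -0.0417 to 0.0117 for Orc5, -0.0192 to 0.0325 for Cdt1 and -0.0208 to 0.0258 for Prim1. In CD95L-T4 cultures they were -0.0633 to 0.035 for Orc5, -0.205 to 0.055 for Pold2, -0.113 to 0.0725 for Pole2, -0.247 to 0.0775 for Rfc3, -0.185 to 0.015 for Rfc4 and -0.0433 to 0.15 for Ccne2. The cause was not tested.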
